A study of Mus musculus with 4 samples.

Results

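The endothelial genes of capillaries and tumour vessels, 10 genes out of 19465 genes measured, were followed through sections of mouse mammary tumour and lung. The 10 members were Pecam1 and Cdh5, which mark endothelium in general, the VEGF receptors Kdr and Flt1, the lung capillary genes Car4, Ednrb, Tmem100 and Calcrl, and Plvap and Angpt2, which are often raised in tumour vessels. They were picked by symbol in the deposited gene list and each symbol was found. The study profiled 2 BALB/c mice, called A and B here, that had received 100000 cells of 4T1 in the mammary fat pad at 8 weeks of age. 4T1 is a mouse mammary carcinoma line of the same strain that spreads to the lung. At 28 days the primary tumour and the lung were taken from each mouse, fixed and embedded in paraffin, and 1 section of 4 µm from each tissue was profiled with Visium, a spatial assay in which paired probes count transcripts in small spots of the tissue. The design therefore holds 2 sections per tissue, all 4 from animals carrying 4T1 tumours, with no lung or mammary gland of a tumour-free mouse analysed here. A unique molecular identifier (UMI) stands for 1 captured probe pair, levels are given as UMIs per 1000000 UMIs of the section or class of spots (CPM), a spot covers several cells, and spots of a section are not replicates.

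The alveolar wall is lined by a dense net of capillaries whose endothelium comes in a pair of forms: general capillary cells, and the wide, thin aerocytes, which carry Car4 and Ednrb and lie against the gas exchange surface. Growing tumours obtain vessels by sprouting, driven by VEGF, or by taking over vessels of the host organ. Angpt2 destabilizes vessels by opposing Angpt1 at the receptor Tek, and is released by endothelium that is being remodelled.

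The promoters of the lung capillary genes Calcrl and Car4, which had large differences between tissues, are shown with that of Flt1, which did not pass the test between tissues. Each is the 250 bases before the transcription start in RefSeq, on build GRCm38.p6, written 5′ to 3′ on the strand of the gene. Capitals mark AGGAAG, a core that ETS factors bind, and CACCC, a core that KLF factors bind, on either strand, so that CTTCCT and GGGTG are also marked. The windows lie at chr2:84425267-84425516 (minus strand) for Calcrl, of which 145 bases fall within the longer GENCODE model of the gene, at chr11:84957504-84957753 (plus strand) for Car4 and at chr5:147726012-147726261 (minus strand) for Flt1.
Calcrl: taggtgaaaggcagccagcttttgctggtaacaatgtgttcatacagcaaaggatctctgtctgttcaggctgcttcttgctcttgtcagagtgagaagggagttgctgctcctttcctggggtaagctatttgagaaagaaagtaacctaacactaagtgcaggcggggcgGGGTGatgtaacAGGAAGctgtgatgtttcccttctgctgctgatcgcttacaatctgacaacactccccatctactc
Car4: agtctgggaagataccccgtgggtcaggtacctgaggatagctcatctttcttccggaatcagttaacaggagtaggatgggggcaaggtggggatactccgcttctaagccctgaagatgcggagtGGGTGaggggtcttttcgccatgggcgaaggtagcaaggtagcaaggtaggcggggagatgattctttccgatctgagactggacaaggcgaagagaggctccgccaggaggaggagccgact
Flt1: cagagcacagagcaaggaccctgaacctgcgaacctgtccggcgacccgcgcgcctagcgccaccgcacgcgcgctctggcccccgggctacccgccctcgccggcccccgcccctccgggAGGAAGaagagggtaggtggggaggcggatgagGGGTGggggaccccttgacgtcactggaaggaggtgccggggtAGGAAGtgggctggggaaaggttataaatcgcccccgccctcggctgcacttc
AGGAAG was present once for Calcrl and at 2 places for Flt1, and the Car4 window holds none. Of 32851 promoter windows of this length, 29.5% hold AGGAAG on either strand and 52.0% hold CACCC. RefSeq windows were matched for 5 of the 10 members, the other two being Kdr and Ednrb. The matches are matches of letters, and no binding was measured.

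In all, 9339 of 9445 spots under tissue had more than 200 genes and were used. They held 13532158 and 10890154 UMIs in the primary tumours of mice A and B, and 11122812 and 30240176 in the lungs. The median depth was 2931 and 1820 UMIs per spot in the tumours, and 6555 and 9174.5 in the lungs. Olfactory and vomeronasal receptor genes, which neither tissue should express, gave a background: the 95th percentile of 1178 such genes was 1.70 CPM in the primary tumour of mouse A, 19.0 in that of mouse B, and 0.539 and 0.397 in the lungs. The primary tumour of mouse B thus stood apart by its background. Genes of the alveolar epithelium took 1.38% and 0.778% of the UMIs in the lungs and at most 0.00760% in the tumours, while the 12 genes of a tumour score, such as Csf3, Mmp3, Plau and Hmga2, took 0.469% and 0.540% in the tumours against 0.0160% and 0.130% in the lungs.

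Both general endothelial markers were more abundant in the lungs. Pecam1 (chr11:106654217-106750628 in GENCODE M21, build GRCm38, the mm10 of the files), an adhesion molecule of endothelial junctions also carried by platelets and neutrophils, stood at 44.5 and 31.1 CPM in the primary tumours of mice A and B, and at 201 and 109.8 CPM in the lungs. Cdh5 (chr8:104101625-104144511), the cadherin of endothelial junctions, stood at 83.9 and 55.4 CPM in the tumours and at 485 and 254 CPM in the lungs. For both genes the lower lung lay above the higher tumour, and mouse A had the higher level in either tissue. In edgeR's quasi-likelihood test over section sums, Pecam1 was higher in lung by a log2 fold change of 2.37 (SE 0.47, derived from the F statistic as are all SEs given here, adjusted p = 0.0187) and Cdh5 by 2.74 (SE 0.52, adjusted p = 0.0160), with n = 2 sections per tissue. The p-values measure the spread between these sections. Fewer endothelial cells and less RNA per cell cannot be told apart in such sums. Neutrophil markers moved the same way, with 7 of 8 higher in lung, a summed level of 7.86% and 3.22% of UMIs in the lungs against 0.253% and 1.11% in the tumours, and none at 0. Their part in the Pecam1 difference was not tested.

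Of the VEGF receptors, Kdr passed the test between tissues and Flt1 did not, and the difference between them was not tested. Kdr (chr5:75932827-75978458), the main signalling receptor for VEGF-A, stood at 14.0 and 12.7 CPM in the tumours and 202 and 83.5 CPM in the lungs. Flt1 (chr5:147561604-147726011), which binds VEGF-A tightly and holds it away from Kdr, stood at 57.6 and 59.1 CPM in the tumours and 113 and 70.2 CPM in the lungs. Kdr was higher in lung by a log2 fold change of 3.78 (SE 0.55, edgeR adjusted p = 0.00652), while Flt1, at 0.98 (SE 0.40, adjusted p = 0.186), did not pass, although its groups did not overlap. Kdr in the primary tumour of mouse B lay within the background, at the 90.6 percentile of the receptor genes. Flt1 stood at 1.59 (adjusted p = 0.0116) without the lung of mouse B and at 0.59 (adjusted p = 0.877) without that of mouse A, in fits where the spread comes from the 2 tumours alone. The ligand Vegfa stood at 139 and 133 CPM in the tumours and 304 and 85.6 CPM in the lungs, so its groups overlapped (log2 fold change 0.90, SE 0.59, adjusted p = 0.412).

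Tmem100, Calcrl and Car4 showed the widest gaps of the members. Tmem100 (chr11:90030348-90036508), a membrane protein of lung endothelium downstream of the receptor Acvrl1, stood at 3.62 and 10.5 CPM in the tumours and 690.0 and 254 CPM in the lungs. Calcrl (chr2:84330626-84425411), which forms the adrenomedullin receptor with Ramp2, stood at 7.61 and 9.64 CPM in the tumours and 684 and 239.6 CPM in the lungs. Car4 (chr11:84957786-84966044), a carbonic anhydrase on the capillary surface, stood at 4.88 and 12.5 CPM in the tumours and 211 and 93.1 CPM in the lungs. The lungs did not overlap the tumours for any of them. Ednrb (chr14:103814625-103844402), a receptor for endothelins found on aerocytes, had the narrowest gap of the 4, with 16.3 and 12.6 CPM in the tumours and 69.2 and 30.9 CPM in the lungs. All 4 were higher in lung in the edgeR test: Tmem100 by a log2 fold change of 6.46 (SE 0.79, adjusted p = 0.00419), Calcrl by 6.12 (SE 0.69, adjusted p = 0.00401), Car4 by 4.51 (SE 0.63, adjusted p = 0.00609) and Ednrb by 2.14 (SE 0.51, adjusted p = 0.0370).

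In 1 of the tumours these 4 genes stood close to the background. In the primary tumour of mouse B, Tmem100, Calcrl, Car4 and Ednrb lay at the 84.1, 79.3, 90.2 and 90.5 percentile of the receptor genes, and in that of mouse A all 4 lay above the 99th. Within mouse A the lung-to-tumour ratio of Tmem100 was 191, with a 95% interval from 144 to 258 that covers counting error only, and for mouse B no ratio is given, as the tumour level was within the background. In the spots with at least 5000 UMIs, where the receptor background was lower, the tumours gave 3.40 and 1.96 CPM for Tmem100, 3.66 and 5.89 CPM for Car4, and 7.50 and 6.03 CPM for Calcrl, and the lungs gave 698 and 248.96 CPM for Tmem100. The 95th percentile of the receptor genes was 0.872 and 4.23 CPM in those tumour spots, so that Tmem100 in mouse B was still within it. Such spots were 995 of 2490 and 411 of 2372 in the tumours, and 1149 of 1697 and 2374 of 2780 in the lungs. In the primary tumour of mouse B they differed in make-up from all kept spots. The tumour score was 0.641% against 0.540% of UMIs, and neutrophil markers were 0.743% against 1.11%.

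Plvap and Angpt2 parted company. Plvap (chr8:71497765-71511752), which forms the diaphragms of endothelial openings and caveolae, stood at 121 and 62.3 CPM in the tumours and 545 and 275 CPM in the lungs. It was higher in lung by a log2 fold change of 2.49 (SE 0.56, edgeR adjusted p = 0.0290), and its ratio was 4.51 within mouse A and 4.41 within mouse B. Angpt2 (chr8:18690263-18741562) was the only member that stood lower in both lungs: 44.9 and 40.8 CPM in the tumours against 5.66 and 26.9 CPM in the lungs. The lungs of both mice lay below the tumours, but they were far apart, with 63 UMIs for mouse A and 814 for mouse B. The log2 fold change was -1.18 (SE 0.57, adjusted p = 0.251) in the fit without a block, and -1.47 (SE 0.52, adjusted p = 0.0415) with the mouse as a replicate block. It was -2.29 (adjusted p = 0.00146) without the lung of mouse B and -0.35 (adjusted p = 0.881) without that of mouse A, so its size depended on which lung was used. In such fits the lone lung is assumed to vary like the tumours. The pass with the block cannot be credited to the pairing, as deviations of same-mouse sums correlated at -0.31.

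In total 8 of the 10 members were higher in lung, where 6.31% of 15267 genes tested were, and none was lower, where 1.15% were (7.46% in either direction). With the replicate block the same 8 were higher, where 9.17% of genes were, and Angpt2 was lower, where 2.73% were. The median log2 fold change was 2.62 over the members and -0.00 over all genes tested. The members were chosen with earlier results of these data known, so these shares are a description and no test of enrichment. Of all genes, 1139 passed in either direction, and 1817 with the replicate block. DESeq2 gave 1707 genes higher and 2120 lower in lung, against 963 and 176 in edgeR. Pecam1, Cdh5, Ednrb and Plvap did not pass without the primary tumour of mouse B (log2 fold changes of 2.003, 2.34, 1.83 and 1.96) nor with library size as the only scaling, and Ednrb did not pass without the lung of mouse A (1.41). In spots with at least 1000 UMIs Ednrb and Plvap did not pass, and in spots with at least 5000 UMIs Tmem100, Calcrl and Car4 alone passed, 3 of 10 members where 1.97% of 13804 genes were higher (Kdr: 3.71, adjusted p = 0.0522).

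**Figure D1:**
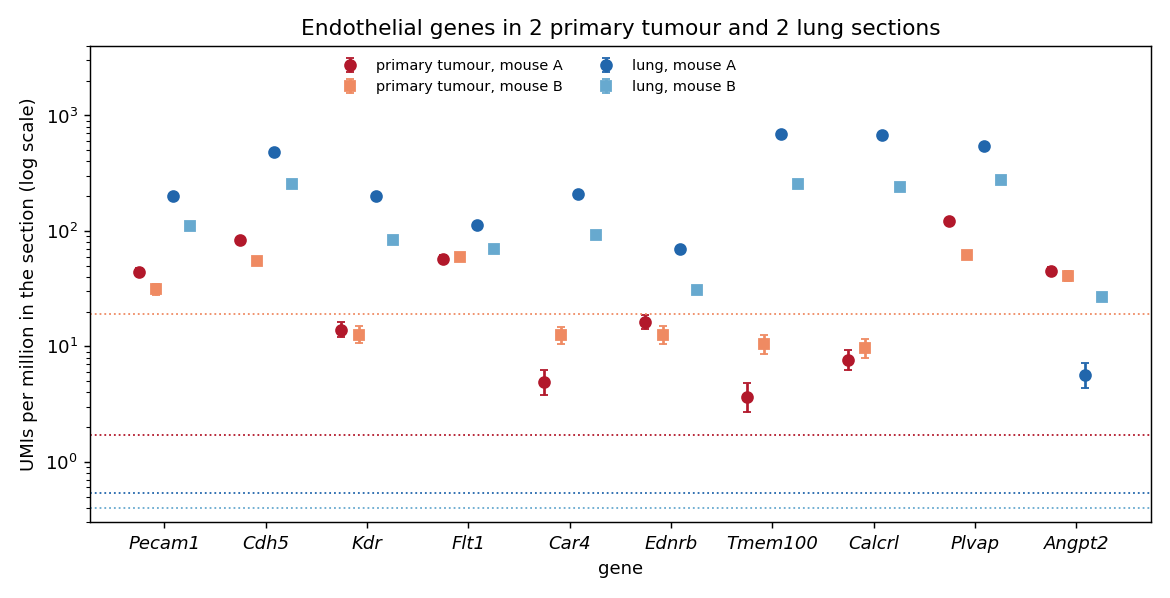
Level of each member in CPM, on a log axis, for the 2 primary tumours (red and orange) and the 2 lungs (dark and light blue), with 95% Poisson intervals that cover counting error only. Dotted lines mark the 95th percentile of the receptor genes in each section, which reaches 19.0 CPM in the primary tumour of mouse B; Angpt2 is the one gene whose lung points lie below the tumour points.

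**Figure D2:**
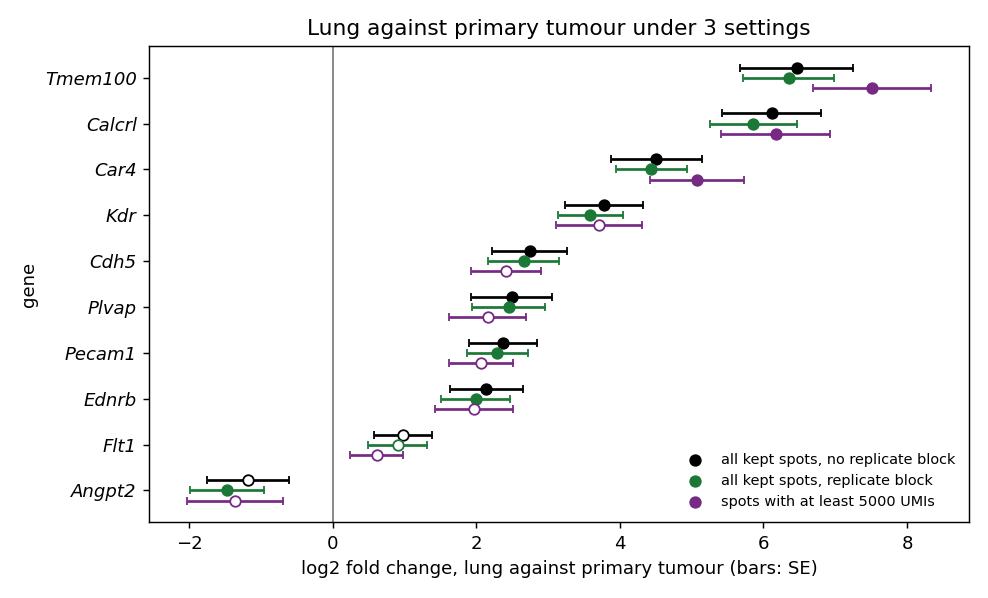
Log2 fold change of lung against primary tumour for each member, with its SE, from edgeR on all kept spots without and with a replicate block and on spots with at least 5000 UMIs. Filled points have an adjusted p under 0.05 and open points do not; Tmem100, Calcrl and Car4 are filled in all 3 settings.

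Counted by spot, Tmem100 and Plvap kept lungs and tumours apart and Angpt2 did not. Tmem100 had a UMI in 1.89% and 4.72% of the spots of the tumours and in 90.1% and 73.3% of those of the lungs. Plvap had one in 33.9% and 16.1% of tumour spots and 89.2% and 82.3% of lung spots, and Angpt2 in 18.2% and 12.4% against 3.71% and 17.6%, so by this share the lung of mouse B lay among the tumours.

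With every spot thinned to 1000 UMIs, which left out the shallower 886 and 56 tumour spots and 10 and 5 lung spots, Angpt2 was found in 4.49% and 4.88% of tumour spots and 0.652% and 2.05% of lung spots, without overlap. Tmem100 was found in 0.561% and 2.33% against 48.4% and 26.2%. The median receptor gene was found in 0.0623% and 1.55% of the thinned tumour spots and in 0% of the lung spots, so that Tmem100 was near background in the tumour section of mouse B. Angpt2 there was just above the 95th percentile of the receptor genes, 4.45%. The single spots with most Angpt2 had 5 and 19 UMIs in the tumours and 1 and 14 in the lungs.

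To set the members against the general endothelial markers, each was divided by the UMIs of Pecam1 and Cdh5 in the same section. Plvap then overlapped between tissues, with 94.2 and 72.1 UMIs per 100 of the pair in the tumours and 79.4 and 75.6 in the lungs. Angpt2 stood at 35.0 and 47.1 per 100 in the tumours and at 0.826 and 7.41 in the lungs, without overlap. Flt1 showed the same order, with 44.8 and 68.4 in the tumours and 16.5 and 19.3 in the lungs. Kdr showed the reverse, with 10.9 and 14.6 in the tumours and 29.5 and 23.0 in the lungs. The pair is not a pure measure of endothelium, as platelets and neutrophils also carry Pecam1. In the primary tumour of mouse B, where the 95th percentile of the receptor genes was 19.0 CPM, part of the pair can be background. The part of either in these ratios was not tested.

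The capillary genes, except Ednrb, stood higher in the lungs on this scale, as Kdr did. Tmem100 gave 2.82 and 12.1 per 100 in the tumours and 101 and 70.0 in the lungs. Calcrl gave 5.93 and 11.1 against 99.8 and 65.9, and Car4 gave 3.80 and 14.4 against 30.7 and 25.6. Ednrb gave 12.7 and 14.5 in the tumours and 10.1 and 8.51 in the lungs, so relative to the pair it stood slightly lower in lung. Summed, the 4 capillary genes gave 0.195 and 0.438 UMIs for each UMI of Plvap and Angpt2 in the tumours, and 3.01 and 2.05 in the lungs. The tumour values of mouse B again rest on genes near the background: in spots with at least 5000 UMIs they were 2.14 per 100 for Tmem100, 6.57 for Calcrl and 6.42 for Car4, and the summed ratio was 0.232. With 2 sections against 2, the smallest two-sided p of an exact permutation test is 0.3333, so these ratios are given with no test.

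**Figure D3:**
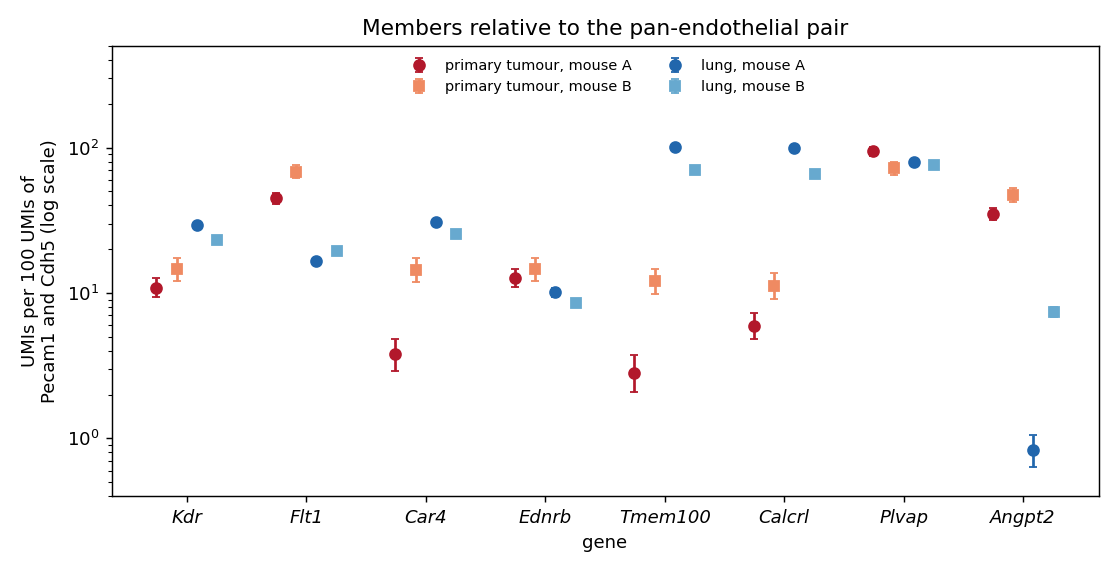
UMIs of the other 8 members per 100 UMIs of Pecam1 and Cdh5 in the same section, on a log axis, with 95% intervals that cover counting error only. Plvap lies between 72.1 and 94.2 in all 4 sections, Tmem100 and Calcrl are higher in both lungs, and Angpt2 and Flt1 are higher in both tumours.

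Tumour markers were spread unequally over the lungs. A spot with at least 0.1% of its UMIs on the tumour score was found 33 times among 1687 lung spots of mouse A with at least 1000 UMIs, and 1035 times among 2775 of mouse B. In mouse B those spots held 52.7% of all UMIs, but 15.3% of the UMIs of Tmem100, 17.8% of Car4, 19.8% of Calcrl and 26.8% of Ednrb. They held 39.05% of the UMIs of Plvap and 63.1% of those of Angpt2. Angpt2 was the only member whose share there exceeded the share of all UMIs.

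Along the tumour score of mouse B the capillary genes had a lower CPM in the last bin than in the first, and Angpt2 had a higher one. The steps between did not all go that way, as Angpt2 was also lower in the second bin than in the first. From the bin under 0.05% through bins up to 0.1%, 0.2% and 0.3% to the bin above, Tmem100 stood at 522, 373, 114, 33.9 and 36.9 CPM. Car4 stood at 184, 135, 47.8, 14.4 and 18.5 CPM in the same bins. Calcrl stood at 449, 353, 130.3, 47.9 and 61.5 CPM. None of the 3 went lower in the last bin, where 99 spots lay. Ednrb stood at 51.4, 43.4, 16.7, 16.0 and 9.57 CPM.

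Plvap had a narrower range, at 364, 342, 230.1, 181 and 161 CPM, and Angpt2 stood at 22.6, 19.0, 25.1, 38.2 and 44.4 CPM. Relative to 100 UMIs of Pecam1 and Cdh5, Plvap went from 63.7 to 98.3 in the fourth bin and 92.2 in the last, and Angpt2 from 3.96 to 20.7 and 25.5. Tmem100 went from 91.5 to 18.4 and 21.2 on the same scale. Ednrb moved less, at 8.999, 9.36, 6.47, 8.68 and 5.49 per 100 over the bins. In the last bin Angpt2 was thus below its 35.0 and 47.1 per 100 in the primary tumours, Plvap was near its level there, and Tmem100 was above it. The share of alveolar epithelial genes was lower along the same bins, from 1.25% to 0.235% of UMIs, and its part in the lower level of the capillary genes was not tested.

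**Figure D4:**
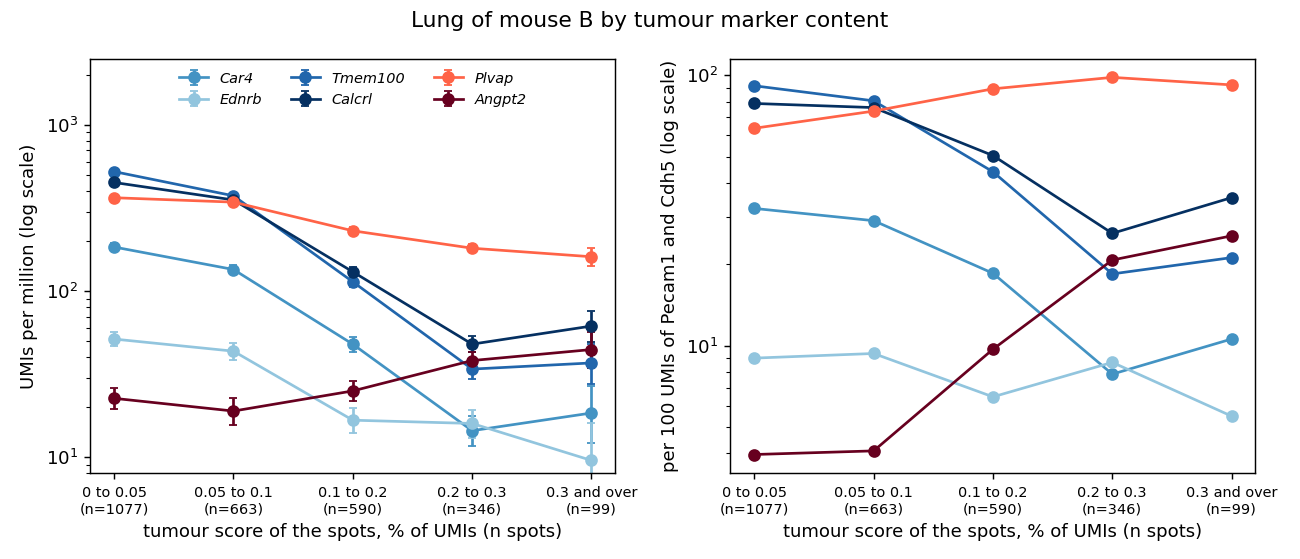
Capillary genes (blue) and Plvap and Angpt2 (red) in the lung of mouse B, in 5 bins of the tumour score of the spots, as CPM with 95% Poisson intervals (left) and per 100 UMIs of Pecam1 and Cdh5 (right), both on log axes. Tmem100, Calcrl and Car4 fall to the 0.3% edge, while Angpt2 goes from 22.6 CPM to 19.0 CPM in the second bin and 44.4 CPM in the last.

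In the lung of mouse A no such range was reached, and Angpt2 could not be followed: bins under 0.05%, to 0.1% and to 0.2% gave 58, 3 and 2 of its UMIs. Tmem100 stood at 714, 471 and 239.5 CPM in those bins, the last with 28 spots. For a comparison over both mice, the 10% of spots with the highest tumour score were set against the 50% with the lowest. In mouse A the lowest class held no UMI of the score. Its highest class had 0.0803% of UMIs on the score, at a median of 5523 UMIs per spot. The classes of mouse A thus rest on few UMIs of the score, with ties taken in barcode order. In mouse A the rich spots had 424 CPM of Tmem100 against 733 in the poor spots, 419.8 against 557 of Plvap, and 4.84 against 5.54 of Angpt2. In mouse B they had 32.2 against 490.4 of Tmem100, 151 against 359 of Plvap, and 41.0 against 21.4 of Angpt2. The rich spots of mouse A still had 1.12% of their UMIs on alveolar genes, against 0.236% in mouse B, so the classes did not hold like tissue. Neutrophil markers took 5.01% and 0.506% of the UMIs of the rich spots against 8.53% and 6.11% of the poor spots. Airway markers took 0.112% and 0.00738% against 0.138% and 0.163%. Macrophage markers were higher in the rich spots, at 0.0994% and 0.139% against 0.0458% and 0.0751%. So were fibroblast and smooth muscle markers, at 0.150% and 0.164% against 0.0824% and 0.139%.

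No gene passed in this comparison, a background of 0% of 12601 genes tested: edgeR gave 0 calls (717 genes at an unadjusted p under 0.05), also with the replicate block (3557 unadjusted), and DESeq2 gave 0. Of the members, 9 had a lower estimate in the rich spots, from -1.57 (SE 1.21) for Tmem100 to -0.83 (SE 0.62) for Plvap, and Angpt2 stood at 0.69 (SE 1.08, adjusted p = 0.726). Their median was -1.09, against 0.02 over all genes. Estimates were also negative for all 8 neutrophil markers (median -1.54), all 4 airway markers and all 8 cardiac markers (median -0.72). The 7 macrophage markers tested had a median of 1.28, with 4 of them above 0. The part of these markers in the estimates of the members was not tested. Without the rich spots of mouse A, 2400 genes passed and the same 9 members were lower, where 14% of 13117 genes were, Tmem100 by a log2 fold change of -4.49 (adjusted p = 0.0168) and Plvap by -1.84 (adjusted p = 0.0433). In that fit the lone rich class of mouse B is assumed to vary like the poor classes.

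Angpt2 was also uneven across the lung of mouse B. The array was split at its centre into quadrants, after the maps had been seen, so the values are a description. Angpt2 stood at 60.0 CPM in the lower left quadrant, 20.6 in the upper left, 11.5 in the lower right and 5.58 in the upper right. The lower left quadrant held 63.3% of the UMIs of Angpt2 and 28.4% of all UMIs. Within the spots of at least 0.1% tumour score, the same order was seen, with 65.0 CPM in the lower left, 24.3 in the upper left, 15.5 in the lower right and 5.26 in the upper right.

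Plvap was also highest in that quadrant, with 375 CPM in the lower left against 258, 229 and 205 CPM in the upper left, lower right and upper right. So were the general markers, Cdh5 at 295 CPM against 251, 245 and 204 CPM and Pecam1 at 118 CPM against 101, 114 and 107 CPM. Per 100 UMIs of the pair, Plvap stood at 90.7 against 73.2, 64.0 and 65.8, and Angpt2 at 14.5 against 5.85, 3.22 and 1.79. Tmem100 was lowest there, at 137 CPM, against 269, 313 and 339 CPM. In each quadrant the spots of at least 0.1% tumour score had less Tmem100 than the others, from 27.0 against 279 CPM in the lower left to 95.2 against 539 CPM in the upper left. Angpt2 did not show such an order in every quadrant: it stood at 65.0 against 53.5 CPM in the lower left, 24.3 against 14.9 CPM in the upper left, 15.5 against 7.64 CPM in the lower right and 5.26 against 5.76 CPM in the upper right. The spots under 0.1% of the lower left thus held more Angpt2 than the spots of at least 0.1% in any other quadrant. The summed hypoxia score was 0.119% of UMIs in the lower left and 0.0658% to 0.0830% in the other quadrants, and the tumour score was 0.139% there against 0.155% in the upper left, 0.113% in the lower right and 0.0978% in the upper right, the quadrant lowest in both Angpt2 and the score. The alveolar score was highest in the lower left, at 1.01% against 0.793%, 0.625% and 0.596% in the upper left, upper right and lower right, while Tmem100 was lowest there. The part of these scores in the Angpt2 and Tmem100 patterns was not tested. In mouse A the quadrants had 2 to 30 UMIs of Angpt2.

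**Figure D5:**
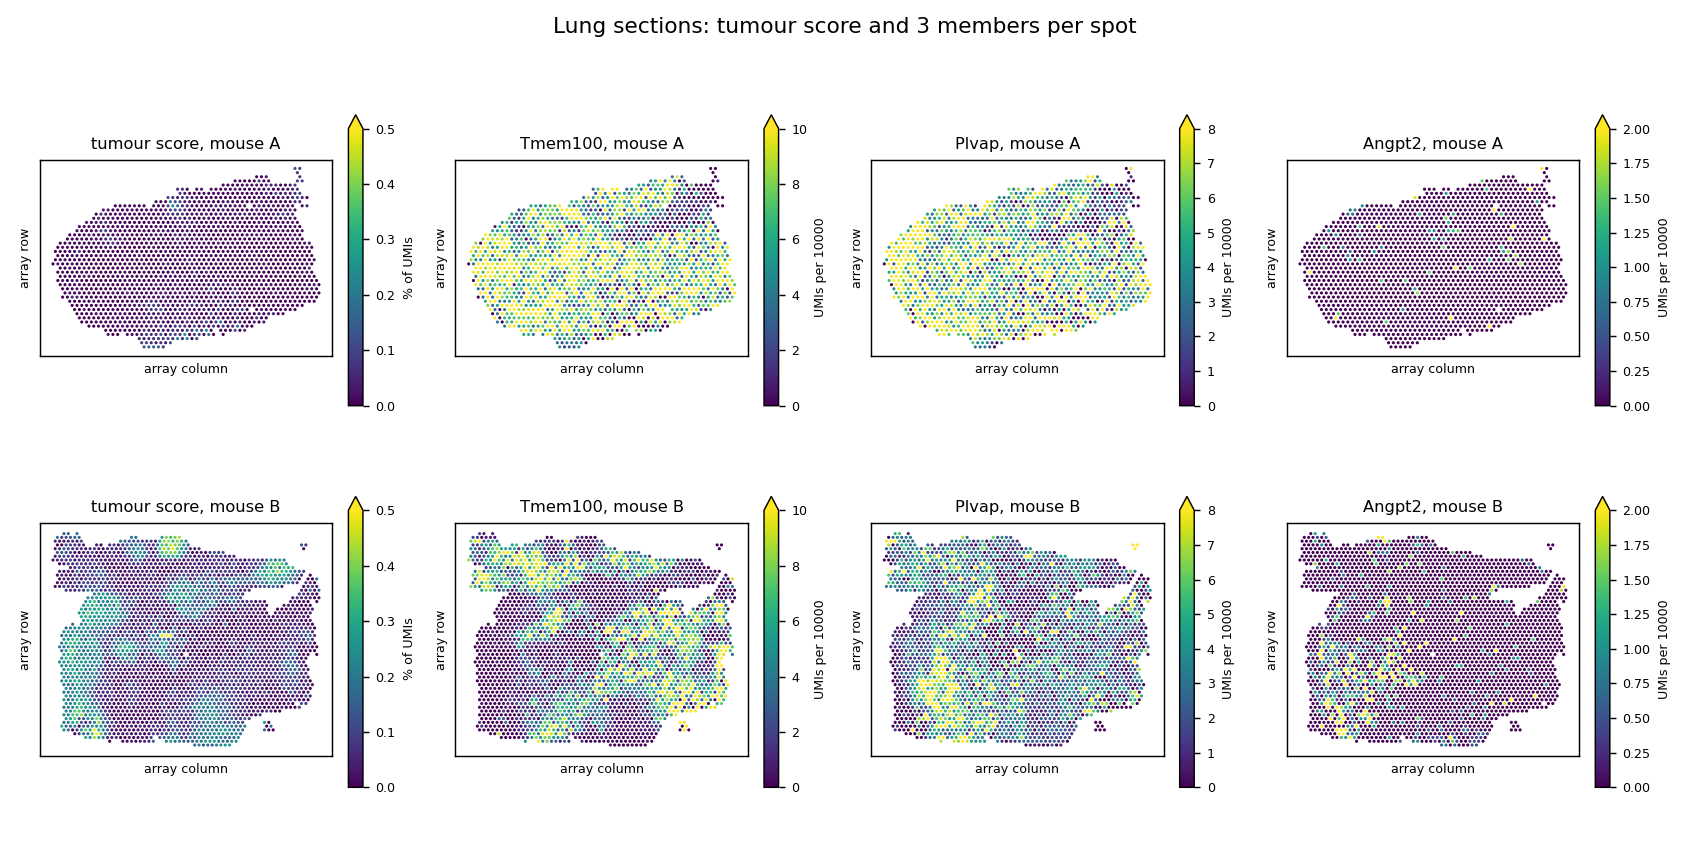
Spots of the lung sections with at least 1000 UMIs, placed by array column and row, coloured by tumour score (% of UMIs) and by UMIs of Tmem100, Plvap and Angpt2 per 10000 UMIs of the spot (scales capped), for mouse A (top) and mouse B (bottom). In mouse B Tmem100 is low where the tumour score is high, and Plvap and Angpt2 are highest in the lower left, where Angpt2 reached 60.0 CPM.

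Some lung spots had over 1% of their UMIs on cardiac markers, 16 in mouse A and 52 in mouse B. Ednrb stood at 131 and 72.8 CPM in them and at 68.7 and 30.5 CPM in the other lung spots. Plvap stood at 611 and 387 CPM in them against 544 and 274 CPM. Both values were higher in both mice, but in mouse A the counting intervals, 67.6 to 229 CPM on 12 UMIs for Ednrb and 461 to 793 CPM on 56 UMIs for Plvap, held the level of the other spots. Other members stood lower in the cardiac-marker spots of both mice: Tmem100 at 469 and 202 CPM against 692 and 255 CPM, Calcrl at 371 and 212 CPM against 686 and 239.9 CPM, Car4 at 131 and 72.8 CPM against 211 and 93.3 CPM, and Cdh5 at 316 and 162 CPM against 486 and 255 CPM. In mouse B the counting intervals of Tmem100, Calcrl and Car4 held the level of the other spots. That of Car4 in mouse A, 67.6 to 229 CPM on 12 UMIs, did so too. Angpt2 was also lower in both mice, at 0 and 3.31 CPM against 5.71 and 27.2 CPM, on 0 and 1 UMIs. Kdr was higher in both, at 207 and 106 CPM against 202 and 83.2 CPM, with intervals that held the level of the other spots. Pecam1 and Flt1 differed in direction between the mice.

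Set against the primary tumours, the tumour-marker-rich lung spots of both mice had higher estimates of the capillary genes, but no member passed in edgeR without a block. Calcrl stood 4.82 higher on the log2 scale (SE 0.99, adjusted p = 0.245), Tmem100 5.02 (SE 1.18, adjusted p = 0.277), Kdr 2.81 (SE 0.65, adjusted p = 0.271) and Car4 3.19 (SE 0.99, adjusted p = 0.365). Only 3 of 13854 genes, 0.0217%, passed, all lower in the lung spots: Gzmc, Gzmf and Gzmg, granzymes of cytotoxic lymphocytes with alike sequences, named after their values were seen. With the replicate block 432 genes passed, and 4 of 10 members were higher, where 2.01% of genes were: Calcrl at 4.06 (SE 0.63, adjusted p = 2.68e-08), Tmem100 at 4.20 (SE 0.69, adjusted p = 2.01e-07), Kdr at 2.50 (SE 0.52, adjusted p = 0.000158) and Car4 at 2.57 (SE 0.62, adjusted p = 0.00259). With so few sums, the spread in the block fit is poorly known. Deviations of same-mouse sums correlated at -0.38, and a block with the mice crossed gave 361 calls. The low p-values thus cannot be credited to the pairing of sections by mouse. DESeq2 without a block called 5 of 10 members higher, where 1.95% of 12921 genes were: those 4 and Cdh5, with adjusted p from 0.00108 for Kdr to 0.0410 for Tmem100. In the edgeR fit with the block 3 of 4 airway, 4 of 8 cardiac, 4 of 8 neutrophil and 3 of 9 fibroblast and smooth muscle markers were higher in the lung spots. Alveolar genes took 1.12% and 0.236% of the UMIs of these spots in mice A and B, against at most 0.00760% in the tumours, and the tumour score was 0.0803% and 0.287%. The part of such other lung tissue in the capillary differences was not tested.

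In the edgeR fits above, without and with the replicate block, Flt1 and Angpt2 were the members with no estimate above 0 in these lung spots. Flt1 stood at -0.00 (SE 0.36) and Angpt2 at -0.82 (SE 0.71, adjusted p = 0.771), or -1.32 (SE 0.57, adjusted p = 0.313) with the block. In CPM, Angpt2 was at 4.84 and 41.0 in the rich spots and 44.9 and 40.8 in the primary tumours, so mouse B had like levels in both. Tmem100 was at 424 and 32.2 against 3.62 and 10.5, and the rich spots of mouse B lay much closer to the tumours than those of mouse A. This comparison and that of whole lungs share the primary tumour sections.

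Within the primary tumours, spots in the highest 25% of a hypoxia score, built on genes such as Car9, Ndrg1 and Egln3, were compared with those in the lowest 25%. Angpt2 stood at 42.4 CPM in the rich and 38.6 CPM in the poor spots of mouse A, and at 33.4 and 44.0 CPM in mouse B. Its difference was 0.02 on the log2 scale (SE 0.30, adjusted p = 0.994), and its direction differed between the mice. Cdh5 was lower in the rich spots of both mice, at 66.7 against 97.7 CPM and 36.4 against 66.8 CPM, a difference of -0.57 (SE 0.43, adjusted p = 0.985). Plvap was at 92.6 against 141 CPM in mouse A and 52.9 against 56.5 CPM in mouse B. With 1 class sum left out, the estimates of Cdh5 and Plvap took either sign.

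No member passed there, and no gene did, a background of 0% of 15670 genes tested (124 genes at an unadjusted p under 0.05 in edgeR). DESeq2 called 2 genes and the replicate block 39, or 0.249%, none of them a member. Vegfa, which hypoxia induces, had an estimate of 1.11 (SE 0.39, adjusted p = 0.985, and 0.163 with the block). The receptor genes had a median of 3.76 CPM in the rich and 15.4 CPM in the poor spots of mouse B, and 0.808 and 0.261 CPM in mouse A, and the part of this background in the differences was not tested.

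Other endothelial genes were taken as lists, to place the members among their kind in the comparison of lung with primary tumour, where 6.31% of all genes were higher and 1.15% lower. Of 20 other pan-endothelial genes, 13 were higher in lung, among them Clec14a (log2 fold change 4.69), the angiopoietin receptor Tek (4.56) and the phosphatase Ptprb (4.45), and none was lower. Of 15 genes of aerocytes and general capillaries, 11 were higher, led by Cyp4b1 (6.33), Tbx2 (6.09) and Sema3c (5.77), and none was lower. Of 17 genes of arteries, veins and lymphatics that were tested, 8 were higher, led by Lyve1 (4.56), Hey1 (4.39) and Gja4 (4.20). Of 9 pericyte genes, 5 were higher, led by Higd1b (3.40), Notch3 (2.66) and Cox4i2 (2.44). The part of other lung cells in these differences was not tested, and the lists were chosen with earlier results of these data known.

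Genes of sprouting and tumour vessels did not follow them. Of 14, 3 were lower in lung, namely the vessel-dilating peptide Adm (-3.17), Igfbp3 (-2.48) and the VEGF family ligand Pgf (-2.29), and 1, Mcam, was higher (1.78), a share near that of all genes. All these are also made by cells other than endothelium. Of 12 VEGF and angiopoietin ligands and receptors, 4 were higher and 2 lower; the largest changes were Tek (4.56), Vegfd (4.41) and Flt4 (2.34), and the angiopoietin Angpt1 stood at -0.53 (adjusted p = 0.520). Of 17 partners of the capillary genes that were tested, 6 were higher and 2 lower: Ramp2, the partner of Calcrl, by 4.58 and Acvrl1 by 3.84, while Adm, the ligand of that receptor, was lower. The median log2 fold change was 2.42, 3.72, 2.34, 2.31, -0.37, 0.33 and 1.17 over these lists in the order given here, against -0.00 over all genes. In spots with at least 5000 UMIs the counts were smaller, as was the share of all genes that were higher (1.97%): 4 of 20 pan-endothelial genes and 7 of 15 capillary genes were higher, and of the genes of sprouting and tumour vessels 1 was lower and none higher.

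Which genes were most like a member was read from tiles of 6 array rows by 12 columns, with 53 and 92 lung tiles for mice A and B, as the Pearson correlation of log2(CPM + 10). Points of a section share a library, so the values are a description. Tmem100 was most like Calcrl (mean r of 0.943 over both lungs), Cd36 (0.942) and Acvrl1 (0.929). Calcrl was most like Tmem100, Acvrl1 (0.939) and Ramp2 (0.929), and Car4 like Calcrl (0.910), Tmem100 (0.903) and Tmcc2 (0.883). Tmem100 and Calcrl thus led each other's lists, and Car4 was in neither.

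Ednrb stood apart from them, with r of 0.297 and 0.572 to Tmem100, and was most like Rgs2 (0.698), Mtus1 (0.671) and Cd300ld (0.659). Cdh5 was most like Cldn5 (0.916), Gpihbp1 (0.897) and the alveolar type 1 gene Ager (0.886), and Plvap like Ptprb (0.803), Esam (0.801) and Cav1 (0.80004). Pecam1 was most like Gpihbp1 (0.766), Clic5 (0.763) and Cyyr1 (0.760), Kdr like Hopx (0.810), Gpihbp1 (0.807) and Cdh5 (0.806), and Flt1 like Armcx4 (0.705), Cdh5 (0.700) and Cd93 (0.689). Angpt2, with under 200 UMIs in 1 lung, got no list. Its r to Tmem100 was -0.117 and -0.522, and to Plvap -0.165 and 0.134.

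In the primary tumours 5 members, Kdr, Car4, Ednrb, Tmem100 and Calcrl, had under 200 UMIs in a section and got no list. The highest mean r was 0.533 for Flt1 (with Gsto1), 0.532 for Pecam1 (with Atf6b), 0.429 for Cdh5 (with Decr2), 0.414 for Plvap (with Mtmr4) and 0.383 for Angpt2 (with Exd2). None of these partners is an endothelial marker. Plvap and Angpt2 had r of 0.116 and 0.151 to each other over 76 and 73 tiles.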

How the data were processed

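Sections of 2 primary tumours and 2 lungs were profiled with the probe-based Visium assay for fixed tissue. The deposited matrices hold unnormalized UMI counts for each gene in each spot under tissue, which the authors made with Space Ranger on mm10 per the submitters' processing notes (version 2.0.0 in the file header), with no pooling of sections, and spot positions on the array (unit: row and column). All 19465 genes were used. Spots with more than 200 genes were kept. UMIs were summed per section, or per class of spots, and tested with edgeR's quasi-likelihood test (TMM, filterByExpr, Benjamini-Hochberg, adjusted p threshold 0.05), with groups taken from the labels. The SE was derived from the F statistic. The scripts were tested on simulated data. Scored classes used spots with at least 1000 UMIs, and a class cut from a score is a range, not a type. Intervals (95%, exact) cover counting error only, and depth ranged from 10890154 to 30240176 UMIs per section.

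Each animal gave 1 lung and 1 tumour section, and a replicate block for the animal was the alternative fit. The deviations of same-mouse sums correlated at -0.31 (lung against tumour), 0.57 (tumour-marker classes), -0.38 (tumour-marker-rich lung spots against tumour) and 0.87 (hypoxia classes). Other alternatives were DESeq2, no filter, library size alone, each section left out, other limits on spots and other classes. The limit of 5000 UMIs, the fixed score bins, the crossed pairing and the quadrants were added after the data were seen.

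The members and gene lists were chosen with earlier results of these data known. The text names all 10 members, Vegfa, of each other list the 3 called genes that changed most, and of each member the 3 genes most like it. In lung against tumour, 3 of 4 airway, 5 of 8 cardiac and 4 of 9 fibroblast and smooth muscle markers were higher, 1 of 8 skin markers was lower, and none of 6 platelet, 8 macrophage and 4 adipocyte markers passed. Probes differ between genes, so levels are compared within a gene. Python 3.11.15 (numpy 2.4.6, scipy 1.17.1, pandas 2.3.3, matplotlib 3.10.9) and R 4.3.3 (edgeR 4.0.16, DESeq2 1.42.0, limma 3.58.1) were used.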

Additional observations from a re-analysis of the deposited data

How the results depend on the processing

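The number of genes called depended on the setting more than the direction of the members did. Sets of genes tested also differed between settings, so the counts are not shares of the same set. Between lung and primary tumour, 15267 genes were tested in edgeR without a block, 18565 with DESeq2 and 19314 with no filter. For lung against primary tumour, 1139 genes were called, against 3827 with DESeq2, 2022 with no filter, 328 with library size alone, 1817 with the replicate block, 681 in spots with at least 1000 UMIs, 301 in spots with at least 5000 UMIs, and 883 (without the lung of mouse A) to 6604 (without the primary tumour of mouse A) with 1 section left out, 2519 without the lung of mouse B among them. For tumour-marker-rich lung spots against primary tumour, 3 were called, against 405 with DESeq2, 602 with no filter, 432 with the replicate block, 0 with lung spots chosen by the alveolar score, 0 in spots with at least 5000 UMIs, and 3 to 1043 with 1 section left out (308 without the rich spots of mouse A, 1043 without those of mouse B, 210 without the primary tumour of mouse A). Between lung spot classes 0 were called, and 0 to 2400 with 1 class sum left out (2400 without the rich spots of mouse A, 7 without the poor spots of mouse B). Between hypoxia classes 0 were called, against 2 with DESeq2, 39 with the replicate block and 0 to 4339 with 1 class sum left out (4339 without the poor spots of mouse A, 263 without those of mouse B). Crossed numbers as a replicate block gave 2565 calls for lung against primary tumour and 361 for tumour-marker-rich lung spots against it.

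No member turned its direction between lung and primary tumour in any setting run. In the other comparisons, estimates of members that did not pass changed sign. Between lung spot classes Angpt2 ran from -1.61 (without the rich spots of mouse B) to 1.89. Between tumour-marker-rich lung spots and primary tumour, Flt1 stood at 0.055 with DESeq2, 0.075 with no filter and from -0.20 to 0.37 with 1 section left out, and Angpt2 ran from -3.09 to 0.062. Between hypoxia classes, with 1 class sum left out, Pecam1 ran from -0.62 to 0.96, Cdh5 from -0.95 to 0.19, Flt1 from -0.13 to 0.26, Car4 from -1.02 to 0.87, Plvap from -0.98 to 0.93 (edgeR adjusted p = 0.00139 at the latter, without the poor spots of mouse A) and Angpt2 from -0.055 to 0.36. With the highest 10% set against the lowest 50%, Car4 stood at 0.038 and Angpt2 at -0.32, and Angpt2 stood at -0.14 with library size alone and -0.12 in spots with at least 5000 UMIs. The cause was not tested.

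Over all genes, the median log2 fold change of lung against primary tumour was -0.16 with DESeq2, -0.31 with library size alone and -0.11 with no filter, against -0.00, and that of the hypoxia classes was -0.24, or -0.40 with DESeq2. With 2 sections per tissue, a call rests on the spread between them. Low members in the primary tumour of mouse B are limited by its background, and Angpt2 in the lung of mouse A by its 63 UMIs.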
